A study of Mus musculus with 9 samples.

Results

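The 39 genes described here encode enzymes that make and hand on one-carbon units and that build, interconvert and recycle nucleotides. They were taken by name from a list of these enzymes, which holds 8 genes of serine and folate metabolism, 5 of the methionine cycle, 12 of purine synthesis, 3 of pyrimidine synthesis, 4 nucleotide kinases and 7 of salvage and of the deoxynucleotide (dNTP) pool. The count files hold 55471 gene identifiers. GENCODE M21 gave a symbol to 55230 of them, and all 39 names were found. Of the 39 genes, 38 had enough counts to be among the 14918 genes tested.

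RNA was sequenced from mouse CD8+ T cells that carry OT-I, a transgenic T cell receptor for an ovalbumin peptide, in 4 control and 5 DKO libraries. Control cells were Bdh1-WT and received shCtrl, a short hairpin RNA against firefly luciferase, a gene mouse cells do not have, and DKO cells were Bdh1-KO and received shOxct1, a hairpin against Oxct1. Bdh1 and Oxct1 encode enzymes of ketolysis, the use of ketone bodies as fuel. The comparison therefore addresses what T cells transcribe when both genes are targeted, and ketolysis itself was not measured in these libraries. All cells of both groups were activated in culture for 24 h with antibodies to CD3ε and CD28 and with IL2, transduced, sorted on the Ametrine reporter, and transferred into C57BL/6 mice that were naive and CD45.1. The mice were infected 1 day later with LmOVA (Listeria monocytogenes that expresses ovalbumin), and CD45.2 Ametrine+ cells were sorted on day 7. The culture after transduction lasted 2 days, and the IL2 dose was 50 U/mL. No source used here gives the age of the mice. The labels do not say whether replicates came from separate donors or recipients, so p-values measure the spread between these libraries, and a knockdown leaves some of the target's RNA.

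Serine gives a one-carbon group to folate, and the folate carriers pass it on to purine rings, to thymidylate and, through the methionine cycle, to methyl groups on DNA and histones. Activated T cells depend on the mitochondrial branch of this pathway and on new purines and pyrimidines when they divide. Deoxynucleotides for DNA come from ribonucleotide reductase and, for cells that take up nucleosides, from salvage kinases.

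The libraries held 45205993 to 59853080 counts in genes. Unmapped reads made up 16.7% of control replicate 1 and 10.3 to 12.3% of every other library. Its level of a member differed from the mean of the other controls by a median of 0.28 on the log2 scale (0.22 for control replicate 3). The differences of control replicate 1 ran against exon length (Spearman's rho -0.27 over the 38 tested members and -0.48 over 14903 genes, a description within 1 library). Over the members, control replicate 2 (0.31) and DKO replicate 1 (0.39) had larger values of the other sign. Over all genes the other libraries ran from -0.20 to 0.33. Control replicate 3 stood apart on the second principal component of all genes. Both targeted genes were lower in every DKO library than in every control library, Oxct1 at 8.17% and Bdh1 at 34.9% of the control mean. Which part of Bdh1 is deleted is not stated in the labels. Cd8a, which encodes a chain of the CD8 coreceptor, was at 719.3 ± 56.3 CPM (counts scaled to library size; n = 4, SD) in control and 715.5 ± 33.5 (n = 5, SD) in DKO, and Cd4 was under 1 CPM on average. Cd8b1, for the other chain, was at 2247 ± 279.9 CPM in control and 1702 ± 128.7 in DKO, without overlap. Its log2 fold change was -0.40 (edgeR quasi-likelihood test, adjusted p = 0.0428). Of 8 CD8 T cell marker genes, 7 had a lower fitted value in DKO and 1, Cd8b1, was called (48.6% of all genes were higher and 2.83% called).

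The members covered a wide range of levels, and the range was nearly the same in both groups. Levels of different genes are compared here only as CPM per kb of exon, which divides the scaled count by the gene's exon length. In control cells the highest were Mat2b at 84.3 ± 11.0 CPM per kb (n = 4, SD), Cmpk1 at 79.0 ± 12.4, Samhd1 at 69.5 ± 3.38 and Mat2a at 64.7 ± 13.3, and within these 4 each gap between neighbours was smaller than the combined SD of the pair. Paics followed at 50.7 ± 3.21 CPM per kb. The lowest tested member was Pfas at 0.403 ± 0.118 CPM per kb, so the range spanned 209.4-fold. By rank, 37 of the 39 genes lay within 2 places of their control rank in DKO. The exceptions were Dguok, which moved by 5 places, and Mat2a, which stood behind Mat2b, Cmpk1 and Samhd1 in control and above them in DKO.

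**Figure D1:**
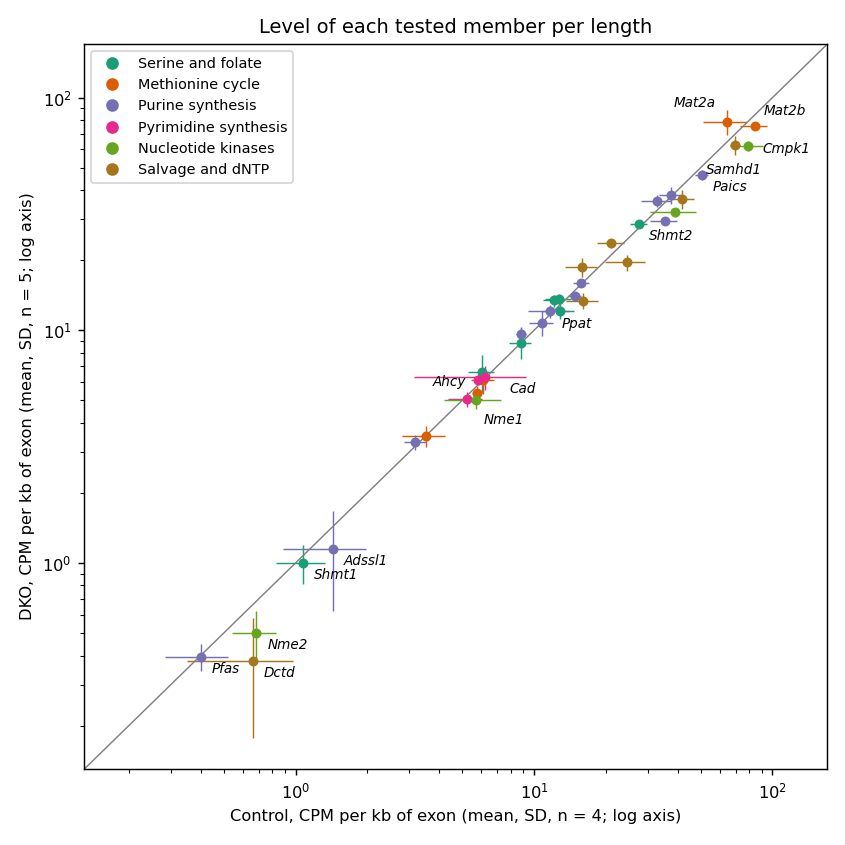
Mean level of each of the 38 tested members in control (x axis, n = 4) and DKO (y axis, n = 5), as CPM per kb of exon on log axes, coloured by role; lines are SD and the diagonal marks equal levels. The points run along the diagonal from Pfas (0.403 in control) to Mat2b (84.3), and the longest horizontal line in the middle of the range belongs to Cad.

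None of the 38 tested members passed an adjusted p of 0.05 between DKO and control (edgeR, quasi-likelihood test, p adjusted over 14918 genes by the method of Benjamini and Hochberg). Over all genes 2.83% passed, 1.32% higher and 1.51% lower. Before adjustment, 5 members had a p under 0.05, all of them lower in DKO: Cmpk1, Adss, Tk2, Dguok and Guk1. That is 13.2% of the members, against 16.0% of all genes tested, of which 8.25% were lower and 7.74% higher. The control and DKO values did not overlap for 2 members (5.26%, Cmpk1 and Adss, both lower in DKO), against 8.71% of all genes (4.09% in the lower direction). In the fit, 17 members were higher and 21 lower in DKO (48.6% of all genes were higher), with a median log2 fold change of -0.02, against -0.01 over all genes.

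The intervals say how large a difference these libraries leave room for. For 33 of the 38 members (86.8%) the 95% interval of the log2 fold change lay inside a 1.5-fold change in either direction, against 50.7% of all genes tested. Much of that gap goes with level: among genes above 10 CPM the shares were 31 of 33 members (93.9%) and 82.0% of all genes. The other 5 members were Dctd, Nme2, Adssl1 and Cad, which have the widest intervals, and Tk2, whose interval just crosses the limit on the lower side. The members' median size of change was 0.12 on the log2 scale, and 0.18 over all genes. Above 10 CPM it was 0.12 for members and 0.13 for all genes.

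**Figure D2:**
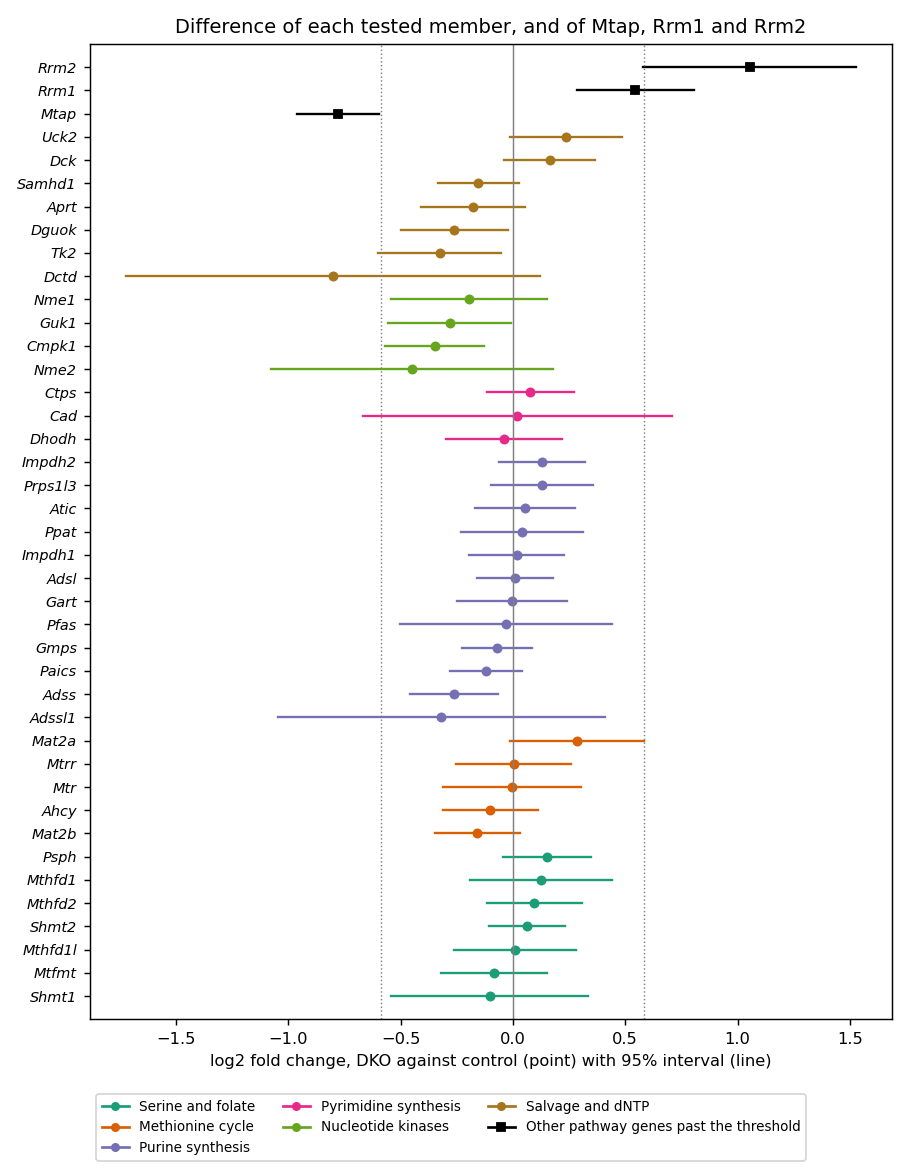
Difference between DKO and control for each tested member (circles, coloured by role) and for 3 other genes of the same pathways (black squares), as log2 fold change with its 95% interval; dotted lines mark a 1.5-fold change. Most member intervals cross 0, those of Cmpk1, Adss, Tk2, Dguok and Guk1 end just below it, and those of Mtap, Rrm1 and Rrm2 lie further off.

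Serine and folate enzymes had similar levels in both groups. Shmt2, the mitochondrial enzyme that splits serine to load folate, was the highest of them per kb and had 82.0, 85.9, 78.7 and 94.5 CPM in control replicates 1 to 4. In DKO replicates 1 to 5 it had 88.6, 85.1, 89.9, 90.0 and 91.6 CPM. The DKO values all lay inside the control range, and the log2 fold change of Shmt2 was 0.06 with an SE of 0.08 (adjusted p = 0.742). Its cytosolic counterpart Shmt1 was at 3.27 to 5.46 CPM in control and 3.13 to 4.80 in DKO, and per kb Shmt2 was 25.5-fold above Shmt1 in control cells. The strand counts of Shmt1, which overlaps Smcr8, summed to 1.28 times its unstranded count. Reads in the overlap are left out and may come from either gene, so how far that ratio is off is not known.

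Mthfd2 and Mthfd1l, which carry out the later mitochondrial steps up to formate, and Mthfd1, the cytosolic trifunctional enzyme, also had overlapping values. Mthfd2 was at 38.9 to 50.9 CPM in control and 44.3 to 50.3 in DKO. Mthfd1l was at 35.2 to 43.9 CPM in control and 32.2 to 47.9 in DKO. Mthfd1 was at 24.0 to 31.1 CPM in control and 22.1 to 35.1 in DKO, and Mtfmt, which formylates the initiator tRNA of mitochondria, at 41.5 to 56.6 and 40.8 to 48.4. Neither branch of the folate pathway thus held a member whose groups separated.

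Psph, which removes phosphate in the last step of serine synthesis, had the smallest p of the group. It was at 58.7, 53.4, 46.8 and 50.4 CPM in control and 57.0, 58.5, 53.1, 59.5 and 62.7 in DKO. Control replicates 1 and 2 lay among the DKO values, and the log2 fold change of 0.15 with an SE of 0.09 (adjusted p = 0.443) did not pass. Psph overlaps Cct6a on the opposite strand, and its 2 strand counts summed to 1.33 times the unstranded count. Reads in the overlap are left out of the values above. Strand was not kept in these libraries, so those reads may come from either gene. Aldh1l2, a mitochondrial enzyme that releases formyl groups from folate, had 0 counts in the control libraries and 1 count in all DKO libraries together, which allows a level of up to 0.0145 CPM in control (3 counts over the group).

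The methionine cycle turns the one-carbon unit into S-adenosylmethionine, the cell's methyl donor. Mat2a encodes its catalytic synthetase subunit and was at 234.3, 318.4, 360.5 and 247.2 CPM in control against 395.7, 401.5, 310.0, 340.7 and 319.1 in DKO. Control replicates 1 and 4 lay under every DKO library, and control replicates 2 and 3 lay inside the DKO range. The log2 fold change of Mat2a was 0.28 with an SE of 0.14 (95% interval -0.01 to 0.58, adjusted p = 0.341), the largest upward value among the 38 members, and 0.18 without control replicate 1. An antisense transcript, Particl, covers 11.3% of its exon bases, and the strand counts of Mat2a summed to 1.15 times the unstranded count.

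Mat2b, the regulatory subunit of the same synthetase, was at 502.7, 391.1, 407.4 and 384.7 CPM in control and 371.3, 391.2, 372.7, 384.5 and 366.7 in DKO. Control replicate 1 was far above the other 8 libraries, which lay close together. The log2 fold change of Mat2b was -0.16 with an SE of 0.09 (adjusted p = 0.402), and -0.077 without control replicate 1. Ahcy, which clears the product of methylation reactions, was at 15.1 to 16.5 CPM in control and 14.2 to 16.9 in DKO, and Mat2b exceeded it 14.7-fold per kb in control. Mtr, methionine synthase, and Mtrr, which reactivates it, overlapped too, at 21.7 to 36.1 and 27.5 to 36.1 CPM in control and 27.3 to 34.2 and 26.4 to 37.8 in DKO.

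Purine synthesis showed no shared direction, with 6 of its 12 members higher and 6 lower in DKO. The committed step is carried out by Ppat, at 39.7 to 64.2 CPM in control and 49.4 to 56.2 in DKO. Prps1l3, annotated as like the enzyme that makes the ribose phosphate for that step, was at 46.0 to 63.8 and 57.7 to 66.6 CPM, and its close relatives may share its reads. Gart was at 51.0 to 65.1 and 46.9 to 62.6 CPM, and Pfas at 2.08 to 4.04 and 2.54 to 3.61. These 4 act in the early steps of ring building, and each had overlapping groups. For Gart, which shares 19.7% of its exon bases with the antisense gene Gm15964, the strand counts summed to 1.28 times the unstranded count.

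Paics, which carries out a carboxylation and the step after it, was the highest purine member per kb, and had 171.8, 162.0, 153.4 and 149.0 CPM in control. In DKO it had 144.5, 144.9, 142.0, 158.8 and 141.6 CPM. Only DKO replicate 4 lay inside the control range, and the log2 fold change of Paics was -0.12 with an SE of 0.07 (adjusted p = 0.473). Per kb, Paics stood 4.32-fold above Ppat in control and 3.87-fold in DKO, although the 2 genes lie head to head on chromosome 5. Their starts overlap: 8.67% of the exon bases of Paics and 6.15% of those of Ppat lie in the other gene, and reads there are left out. Adsl and Atic, which finish the ring, were at 78.9 to 95.4 and 22.6 to 28.8 CPM in control and at 85.4 to 92.2 and 23.3 to 28.0 in DKO.

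Ppat and Paics start close together but differ in level. The letters before the starts of the members were therefore read for binding words of regulators known for growth genes. RefSeq (GRCm38.p6) gave a window of 250 bases before and 50 after the start for 35 of the 39 members. The E-box CACGTG, known as a word of Myc, was found in 4 of the 35 (11.4%), against 8.09% of 27025 genes with such windows, and the 4 are shown with the word in capitals, 5′ to 3′ on the strand of the gene:

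Paics, chr5:76951087-76951116, plus strand: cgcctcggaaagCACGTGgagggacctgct

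Atic, chr1:71557137-71557166, plus strand: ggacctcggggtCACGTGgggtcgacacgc

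Impdh2, chr9:108560314-108560343, plus strand: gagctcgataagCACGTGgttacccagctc

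Nme1, chr11:93968273-93968302, minus strand: gctgcggggaacCACGTGaggccggggagc

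Nme1, second start, chr11:93968037-93968066, minus strand: agcttgatacgcCACGTGggctcgcctttg

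The words begin 203, 7, 110, 18 and 29 bases before their starts. A search for TTTCCCGC, TTTGGCGC and TTTCGCGC on both strands, words of E2F factors, found 1 member (2.86%, against 2.12% of all genes). That member is Ppat, and the letters found lie outside the Paics window, which could not hold them. Ppat has TTTCCCGC on the other strand at 211 and 158 bases before its start:

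Ppat, chr5:76951771-76951800, minus strand: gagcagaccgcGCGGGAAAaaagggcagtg

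Ppat, chr5:76951718-76951747, minus strand: aggatcagaggGCGGGAAAgggaggtgcaa

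The starts of Ppat and Paics are 276 bases apart, each gene runs through the start of the other, and their windows share no base. CCAAT, on either strand, was in 16 of the 35 members (45.7%) and in 41.1% of all genes, and TGATGNAA, a word of ATF4, in none of the members and in 4.51% of all genes. No found word overlapped another in the windows shown. These shares are descriptions of letters near annotated starts, and the 4 E-box members were not called either: Impdh2 was at 25.4 to 28.3 CPM in control and 27.3 to 33.0 in DKO.

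After the ring is closed, inosine monophosphate is turned into adenine or guanine nucleotides. Adss, the first enzyme of the adenine branch (ENSMUSG00000015961.8, chr1:177762962-177796511, GRCm38), was at 190.8, 151.6, 148.4 and 149.3 CPM in control and at 125.5, 133.1, 136.8, 138.7 and 132.9 in DKO. All 5 DKO libraries lay under all 4 controls, and control replicate 1 was far above the other controls. The DKO mean was 83.4% of control, a log2 fold change of -0.26 with an SE of 0.09 (95% interval -0.46 to -0.07), with an unadjusted p of 0.0127 and an adjusted p of 0.164. Without control replicate 1 the log2 fold change of Adss was -0.18. Its isozyme Adssl1, known from muscle, was near 3 CPM and swung within groups, at 3.94, 2.03, 1.97 and 4.01 in control and 2.16, 1.68, 1.85, 1.97 and 4.36 in DKO.

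The guanine branch is led by Impdh1 and Impdh2 and finished by Gmps. Impdh1 was 4.27-fold above Impdh2 per kb in control, and was at 114.0 to 144.1 CPM in control and 108.2 to 137.4 in DKO. Gmps was at 112.0 to 127.0 CPM in control and 110.8 to 118.1 in DKO. The DKO values of Impdh1 spread over most of the control range, and control replicates 1 and 2 of Gmps lay above every DKO library.

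Pyrimidine synthesis is begun by Cad, which carries 3 activities in 1 protein, continued by Dhodh in mitochondria, and completed for cytidine by Ctps. Cad had 16.5, 52.9, 57.5 and 76.2 CPM in control and 56.4, 44.1, 56.9, 45.9 and 54.2 in DKO. Control replicate 1 was the lowest and control replicate 4 the highest of all 9 libraries, so the controls enclosed the DKO group. The log2 fold change of Cad was 0.02 with an SE of 0.31 (95% interval -0.67 to 0.71, adjusted p = 0.981), and without control replicate 1 it was -0.29. The coefficient of variation of Cad was 49.2% in control and 11.8% in DKO, the widest control spread of the 38 members.

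Ctps had the smallest control spread of the 38 members (coefficient of variation 3.66%), at 18.5, 19.4, 20.2 and 19.1 CPM, and at 22.0, 19.3, 20.3, 19.4 and 20.9 in DKO. Its log2 fold change was 0.08 with an SE of 0.09 (adjusted p = 0.718). Dhodh was at 25.5 to 37.99 CPM in control and 29.4 to 35.0 in DKO. No pyrimidine member separated the groups.

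The nucleotide kinases, which raise monophosphates to the di- and triphosphates that polymerases use, had the lowest median of the 6 roles. All 4 had a lower fitted value in DKO, with that of Nme1 resting on control replicate 1. Their median log2 fold change was -0.32, and none passed the adjusted threshold. Their summed level was 362.0 ± 61.1 CPM in control (n = 4, SD) and 288.6 ± 13.1 in DKO (n = 5, SD), from 317.1 to 452.1 and from 272.9 to 305.7. The sums are led by Cmpk1 and by control replicate 1, so they are given as a description.

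Cmpk1 (ENSMUSG00000028719.8, chr4:114959336-114987241, GRCm38) phosphorylates UMP and CMP and had the smallest p of all members. It was at 330.0, 260.4, 260.3 and 230.3 CPM in control and at 204.0, 216.0, 198.8, 225.4 and 216.8 in DKO. The groups did not overlap, though control replicate 4 and DKO replicate 4 lay close together. The DKO mean was 78.5% of control, a log2 fold change of -0.35 with an SE of 0.10 (95% interval -0.57 to -0.13), with an unadjusted p of 0.00471 and an adjusted p of 0.0983.

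Whether Cmpk1 counts as changed rests on the method and on 1 library. It passed with the DESeq2 Wald test (adjusted p = 0.0235), which called 6.96% of all genes, and with limma-voom and quality weights (adjusted p = 0.0220), which called 6.68%. Without control replicate 1 the edgeR adjusted p was 0.0427 and the log2 fold change -0.25, with 4.93% of all genes called, and without any 1 other library the adjusted p ran from 0.0720 to 0.234. Without control replicates 1 and 3 it was 0.123, with a log2 fold change of -0.22. With 1 surrogate variable 8.37% of all genes passed, Cmpk1 (adjusted p = 0.0165), Adss (0.0209) and Guk1 (0.0479) among them, and with the replicate number as a block 0.449% passed and no member.

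Guk1, the guanylate kinase, was at 94.5, 64.4, 58.7 and 69.5 CPM in control and 58.9, 55.3, 58.3, 61.9 and 60.8 in DKO. Control replicate 1 again stood far above the rest, and control replicate 3 lay among the DKO values. The log2 fold change of Guk1 was -0.28 with an SE of 0.13 (adjusted p = 0.298), and -0.13 without control replicate 1. Nme1, which makes triphosphates from diphosphates, followed the same outline, at 26.6, 18.4, 14.95 and 16.6 CPM in control and 15.1 to 18.5 in DKO (log2 fold change -0.19, adjusted p = 0.601), and without control replicate 1 its value was -0.0071. Its neighbour Nme2 was counted at only 20 to 51 reads per library, and 48.9% of its exon bases lie in the readthrough gene Gm20390, which also takes in 12.5% of Nme1. Counting against an annotation that holds such a gene leaves out the shared reads, so the 23.8-fold gap in CPM between Nme1 and Nme2 in control is not a comparison of their RNA.

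**Figure D3:**
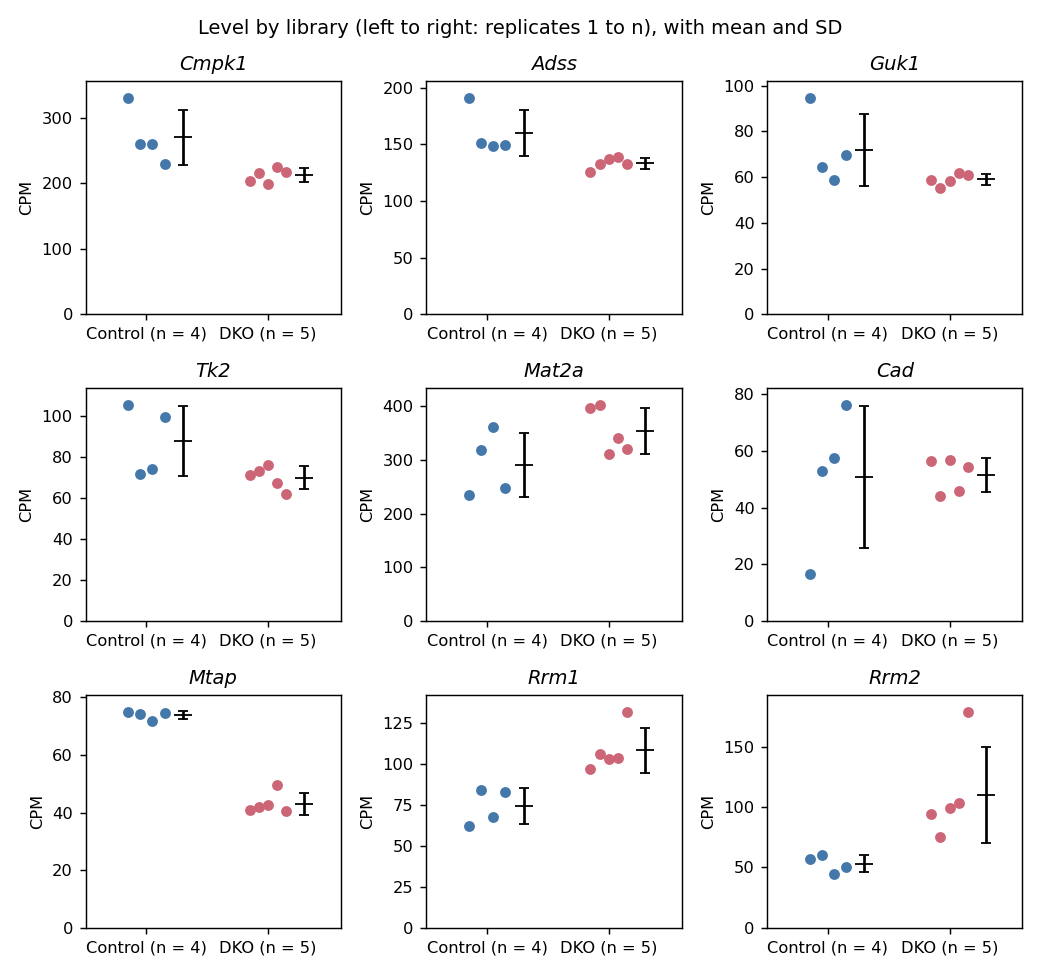
CPM in each library for 6 members and for Mtap, Rrm1 and Rrm2, in order of replicate number within control (blue, n = 4) and DKO (red, n = 5); black marks are the mean and SD, and each y axis starts at 0. Control replicate 1, the leftmost blue point, is the highest control for Cmpk1, Adss, Guk1 and Tk2 and the lowest for Cad and Mat2a, and DKO replicate 5, the rightmost red point, is the highest for Rrm1 and Rrm2.

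Of the 7 salvage and dNTP members, 5 had a lower and 2 a higher fitted value in DKO, none passed, and 48.6% of all genes were higher. Both mitochondrial deoxynucleoside kinases were among the 5 members with an unadjusted p under 0.05. Tk2, which phosphorylates thymidine and deoxycytidine in mitochondria, was at 105.2, 71.8, 74.3 and 99.3 CPM in control and 71.1, 73.3, 76.0, 67.4 and 61.8 in DKO. Control replicates 1 and 4 were high and the other controls lay within the DKO range, with a log2 fold change of -0.33 with an SE of 0.12 (95% interval -0.60 to -0.05, adjusted p = 0.225). Dguok, its partner for purine deoxynucleosides, was at 89.0, 66.5, 64.1 and 77.1 CPM in control and 64.02, 66.9, 58.4, 64.8 and 55.3 in DKO, for a log2 fold change of -0.26 with an SE of 0.11 (adjusted p = 0.269). The same 2 control libraries were the highest for Dguok.

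The cytosolic kinases Dck, for deoxycytidine, and Uck2, for uridine and cytidine, had higher fitted values in DKO. Dck was at 68.5, 77.4, 93.1 and 80.5 CPM in control and 89.1, 85.1, 88.5, 96.0 and 88.5 in DKO, for a log2 fold change of 0.16 with an SE of 0.09 (adjusted p = 0.426). Uck2 was at 67.3, 90.8, 91.5 and 97.2 CPM in control and 103.6, 95.4, 100.1, 93.8 and 117.3 in DKO, for a log2 fold change of 0.24 with an SE of 0.11 (adjusted p = 0.346). For both genes control replicate 1 was the lowest library, and 1 control lay inside the DKO range. Without that replicate the values were 0.084 for Dck and 0.12 for Uck2.

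Samhd1, which breaks down dNTPs, was the highest salvage member per kb, at 680.0, 631.8, 608.6 and 622.7 CPM in control and 584.3, 622.1, 573.9, 593.3 and 483.0 in DKO. DKO replicate 5 was the lowest and DKO replicate 2 reached the controls. The log2 fold change of Samhd1 was -0.15 with an SE of 0.08 (adjusted p = 0.394), and -0.10 without DKO replicate 5. Aprt, which salvages adenine, was at 59.6 to 79.0 CPM in control and 54.9 to 67.6 in DKO (log2 fold change -0.18, adjusted p = 0.449, and -0.10 without control replicate 1). Dctd, which deaminates dCMP on the way to thymidylate, had the lowest fitted value of all members, -0.80 on the log2 scale (SE 0.42, adjusted p = 0.386). Its levels of 3.32, 1.61, 3.01 and 1.11 CPM in control and 1.80, 2.22, 0.715, 1.01 and 0.698 in DKO rest on 33 to 161 counts per library and overlap widely. Without control replicates 1 and 3, its highest libraries, the log2 fold change of Dctd was -0.083.

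**Figure D4:**
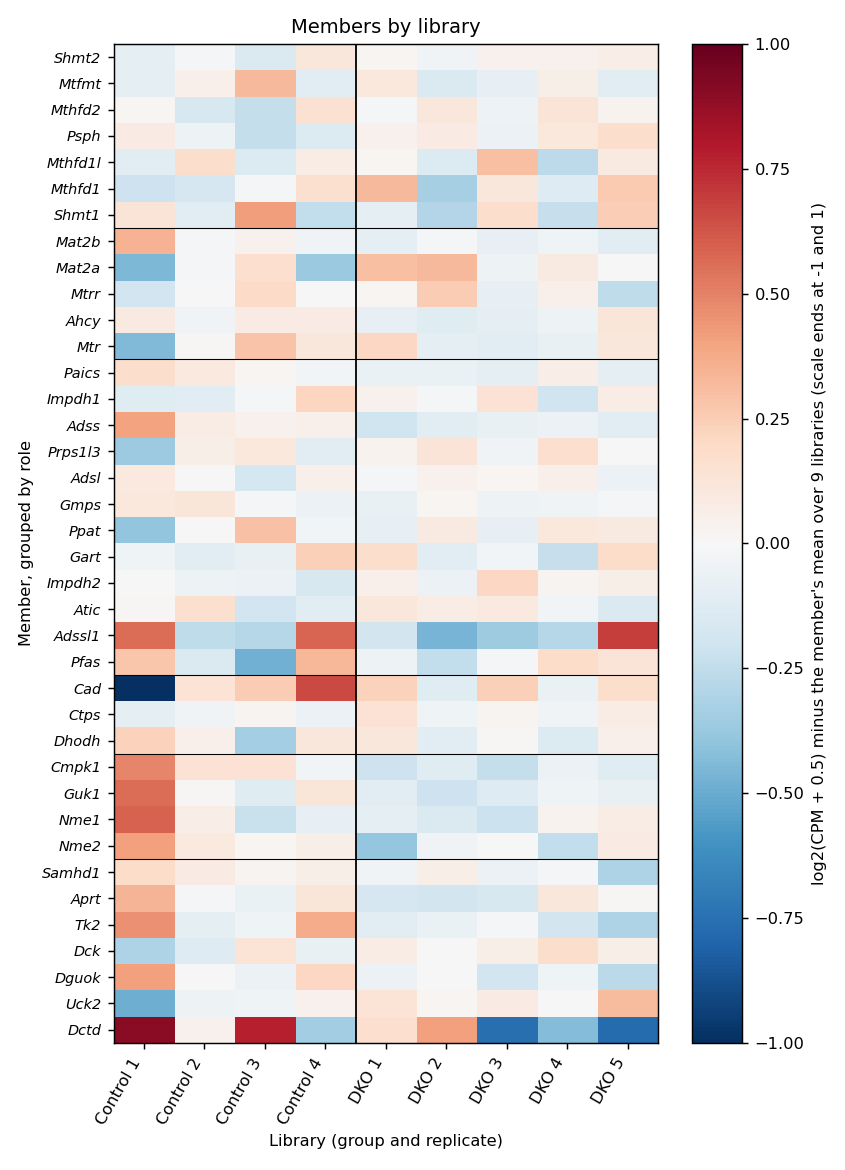
Each tested member's log2(CPM + 0.5) in each library minus its mean over the 9 libraries, grouped by role and ordered by level per kb within a role; the vertical line divides control from DKO and the colour scale ends at -1 and 1. The strongest colours sit in the column of control replicate 1 and in the low members Dctd and Adssl1, and the DKO columns are mostly pale.

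The spread within groups was uneven. The median coefficient of variation of the members was 13.0% in control and 7.72% in DKO, against 20.9% and 11.7% over all tested genes, and above 10 CPM all genes had 14.9% and 7.17%. Summed over the 39 genes, the level was 3461 ± 102.1 CPM in control (n = 4, SD) and 3307 ± 77.9 in DKO (n = 5, SD), and the ranges of 3393 to 3613 and 3204 to 3390 came within a few CPM of each other. The purine sum was 874.6 ± 18.7 CPM in control (853.6 to 898.8) and 840.9 ± 5.75 in DKO (831.3 to 846.1), without overlap. The serine and folate sum was 298.7 ± 10.3 in control (289.1 to 312.8) and 311.0 ± 10.8 in DKO (294.5 to 322.9), with overlap. These sums are led by their highest genes and were not tested.

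A further 85 genes of the same pathways give the surroundings of the members, and 68 of them could be tested. Of these, 31 were higher and 37 lower in DKO, and 3 passed (4.41%, against 2.83% of all genes): Mtap was lower, and Rrm1 and Rrm2 were higher. By branch, the calls were 0 of 15 serine and folate genes, 1 of 11 in methionine and polyamine metabolism, 0 of 20 purine genes, 0 of 10 pyrimidine genes and 2 of 12 dNTP genes. Before adjustment, 17 of the 68 (25.0%) had a p under 0.05, 8 higher and 9 lower, against 16.0% of all genes. By branch these were 7 of 15 serine and folate genes (5 higher, 2 lower) and 6 of 12 dNTP genes (3 higher, 3 lower). The other branches had 2 of 11 methionine and polyamine genes, 1 of 20 purine genes and 1 of 10 pyrimidine genes. The median log2 fold change of the 68 genes was -0.02.

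Mtap (ENSMUSG00000062937.7, chr4:89137122-89181081, GRCm38) returns the sulfur and adenine of methylthioadenosine, a by-product of polyamine synthesis, to methionine and AMP. It was at 74.9, 74.2, 71.6 and 74.5 CPM in control and 40.8, 41.8, 42.5, 49.6 and 40.4 in DKO. The controls were almost equal and the groups were far apart. Mtap fell to 58.3% of the control mean, a log2 fold change of -0.78 with an SE of 0.08 (95% interval -0.96 to -0.60, adjusted p = 8.09e-04), and passed under each of the 18 alternatives tried.

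Rrm1 and Rrm2 encode the large and the small subunit of ribonucleotide reductase, which makes deoxynucleotides from ribonucleotides. Rrm2 (chr12:24708241-24714146) was at 57.2, 60.1, 44.6 and 50.4 CPM in control and 94.4, 75.2, 99.0, 103.5 and 178.7 in DKO, with DKO replicate 5 far above the others. Its log2 fold change was 1.05 with an SE of 0.22 (adjusted p = 0.0278), and 0.81 without DKO replicate 5 (adjusted p = 0.0140). Rrm1 (chr7:102441695-102469771) was at 62.2, 83.8, 67.7 and 82.7 CPM in control and 96.8, 105.7, 103.2, 103.4 and 131.5 in DKO, for a log2 fold change of 0.54 with an SE of 0.12 (adjusted p = 0.0357). Neither gene's groups overlapped. The Rrm2 call was lost without control replicate 3 or 4 or DKO replicate 1, 3 or 4 (adjusted p 0.0512 to 0.0857), and the Rrm1 call without control replicate 3 or 4 or any 1 DKO library (adjusted p 0.0600 to 0.0790).

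Beside these, the summed CPM of 20 cell cycle genes was 1158 ± 92.7 in control (n = 4, SD) and 1582 ± 242.8 in DKO (n = 5, SD), highest in DKO replicate 5 at 1995 (exact permutation test, two-sided, p = 0.0159, which is the smallest it allows, and adjusted p = 0.0476 over 6 lists). In that list 20 of 20 genes were higher and 12 were called, against 48.6% and 2.83% of all genes. Rrm1 and Rrm2 are not in the list, and its part in their difference was not tested. In bulk libraries a larger share of cycling cells and more RNA per cell cannot be told apart.

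Tyms, thymidylate synthase, which makes thymidylate from dUMP, had a higher fitted value in DKO but did not pass. It was at 35.1, 28.1, 30.3 and 27.8 CPM in control and 35.1, 32.8, 34.8, 36.6 and 40.9 in DKO, for a log2 fold change of 0.25 with an SE of 0.10 (adjusted p = 0.256). Control replicate 1 alone reached the DKO values, and Tyms passed with limma-voom (adjusted p = 0.0383).

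Phgdh, which opens the serine branch that Psph closes, was at 48.5, 42.1, 46.2 and 45.2 CPM in control and 49.1, 50.9, 53.6, 49.7 and 53.0 in DKO. The groups did not overlap by a narrow margin, and the log2 fold change of Phgdh was 0.17 with an SE of 0.08 (adjusted p = 0.301). Umps, which joins the pyrimidine ring to ribose phosphate and makes UMP, was at 39.4 to 40.2 CPM in control and 34.4 to 39.4 in DKO (log2 fold change -0.11, adjusted p = 0.515). Hprt, which salvages hypoxanthine and guanine, was at 222.0 to 315.1 and 212.3 to 237.9 CPM (log2 fold change -0.16, adjusted p = 0.493), again with control replicate 1 on top, and at -0.049 without it.

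Of the marker lists for other cells, the myeloid one differed between the groups. The sum of 12 myeloid genes was 179.8 ± 14.8 CPM in control (n = 4, SD) and 120.0 ± 4.13 in DKO (n = 5, SD), with ranges of 166.2 to 200.8 and 116.4 to 126.7 (exact permutation test, two-sided, p = 0.0159, adjusted p = 0.0476 over 6 lists). It was led by Ctss, Cd68 and Itgam, and 8 of the 12 were above 1 CPM. The defining genes S100a8, S100a9 and Mpo were at 0 or below 1 CPM in every library, Lyz2 averaged 2.43 CPM in control and 5.85 in DKO, and their part in the members' levels was not tested. Sums of B cell, erythroid and platelet, CD4 T cell and CD8 T cell genes gave adjusted p of 0.514, 0.540, 0.0952 and 0.0635.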

How the data were processed

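Counts of each gene, in the layout STAR writes, were deposited by the authors for each of 9 libraries as whole numbers. The submitters' processing notes name Trim Galore 0.6.0, STAR 2.7.8a and mm10, and no source used here gives their annotation or strand setting. Per the labels' protocols, polyA RNA was amplified with Takara SMART-Seq v4, which has no molecular identifiers, and libraries were made with Illumina Nextera Flex. The unstranded counts were used (49.9 to 50.1% of strand-assigned counts were on the first strand). Such counts leave out reads in overlapping genes and reads that map to several places. Lines for reads outside genes were dropped: unmapped 10.3 to 16.7% of reads, multimapping 5.80 to 6.79%, in no feature 4.01 to 5.20% and ambiguous 4.97 to 5.31%. Symbols, coordinates and exon lengths are from GENCODE M21 (GRCm38).

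Control and DKO were compared with the robust quasi-likelihood test of edgeR 4.0.16 under R 4.3.3 (TMM factors 0.987 to 1.03, filterByExpr at its minimum of 10 counts and minimum total of 15, threshold 0.05 after Benjamini-Hochberg adjustment over 14918 genes). CPM were scaled by TMM. Intervals of log2 fold changes are 95%, from the quasi-likelihood fit, and floors are 3 counts over a group. Marker sums used exact permutation tests. No libraries of a group were duplicates (smallest chi-square per degree of freedom 8.96). On data simulated for this comparison (14918 genes, 200 changed) edgeR recovered 37.3% of changes of 1.5-fold, 65.7% of 2-fold and 86.4% of 4-fold, with 6.67% false calls. DESeq2 recovered 69.5% of all changed genes with 19.7% false, and limma-voom 63.0% with 5.97% false.

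Full values were given for members past the threshold or without overlap, for the member with the highest level per length and the smallest p in each role, and for other members in ranges. Of the other pathway genes, those past the threshold and Tyms, Rrm1, Rrm2, Phgdh, Umps and Hprt were named, with Oxct1 and Bdh1 as a check of the labels. Some genes that the rule names are not reported here. Values of further members were added after they were seen. The members, lists and tests were chosen with earlier results of these data known. Alternatives were DESeq2 size factors, DESeq2 1.42.0, limma 3.58.1 voom with quality weights, no filter, a filter of 1 CPM in 4 libraries, both strand columns added, a block for the replicate number, 1 surrogate variable from sva 3.50.0, each library left out and, chosen after seeing the data, both control replicates 1 and 3 left out. Python 3.11.15, numpy 2.4.6, pandas 2.3.3, scipy 1.17.1 and matplotlib 3.10.9 were used.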

Additional observations from a re-analysis of the deposited data

Results flagged for a closer look

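Over the tested members and the other named pathway genes, 9 of 92 pairs of a gene and a group held a library that lay further from its nearest neighbour than Dixon's 95% limit allows. Chance gives about 1 in 20 groups.

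Among the members, Ahcy was low in control replicate 2 at 15.1 CPM and high in DKO replicate 5 at 16.9 CPM. Gart was high in control replicate 4 at 65.1 CPM, Paics in DKO replicate 4 at 158.8 CPM, Adss in control replicate 1 at 190.8 CPM, and Adssl1 in DKO replicate 5 at 4.36 CPM. Of the other pathway genes, Mtap was high in DKO replicate 4 at 49.6 CPM, which is still below every control library. Rrm1 at 131.5 CPM and Rrm2 at 178.7 CPM were both high in DKO replicate 5. Only 1 of the 9 values, that of Adss, was in control replicate 1.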

How the results depend on the processing

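The count of all genes past the threshold moved from 422 to 1038 with the DESeq2 Wald test, 996 with limma-voom, 1248 with 1 surrogate variable, and 179 to 749 when 1 library was left out. The count of members moved from 0 to 1 with DESeq2, 1 with limma-voom (Cmpk1 in both), 3 with 1 surrogate variable (Cmpk1 at -0.30, Adss at -0.22 and Guk1 at -0.19, adjusted p 0.0165, 0.0209 and 0.0479, where 8.37% of all genes were called), and 0 to 1 when 1 library was left out. Other pathway genes past the threshold went from 3 to 6 with limma-voom, 6 with 1 surrogate variable, and 1 to 4 when 1 library was left out. Members without overlap went from 2 to between 2 and 5. The shares of all genes under the same settings are not given here, so that count is not read as a result about the members. When 1 library was left out, the cell cycle sum differed by 321.5 to 482.0 CPM and the myeloid sum by -64.4 to -52.9 CPM. Both sums then missed the threshold except without DKO replicate 5. Fewer libraries allow fewer relabellings, which raises the smallest possible p. After adjustment over 6 lists, a list could then pass only when several lists reached that p together. The misses therefore do not decide whether the sums differ. The CD8 T cell sum differed by -1519.6 to -806.2 CPM and the CD4 T cell sum by 4.97 to 8.28 CPM, and both passed without DKO replicate 5 (adjusted p = 0.0429, exact permutation test). Cad changed sign with limma-voom (-0.10), with 1 surrogate variable (-0.032), without control replicates 1 and 3 (-0.34) and when 1 library was left out (-0.29 to 0.29), and Shmt2 without control replicates 1 and 3 (-0.033). Adssl1 ran from -0.65 to -0.14 and Nme2 from -0.55 to -0.31 over all alternatives, with no call. Of the 18 members whose fold changes are printed neither here nor in the report, 12 changed sign under at least 1 alternative, all within -0.20 to 0.21 and none called.

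Replicate numbers did not pair the libraries: same-numbered libraries correlated at -0.047, -0.0092, 0.012 and -0.12 in their deviations, and none correlated best with its own number. The number of control replicate 4 differs between its title and its file, so its pair and the block are in doubt. With the replicate number as a block, 67 genes, 0 members and 1 other pathway gene (Mtap, adjusted p = 0.0393) passed. Cmpk1, Rrm1 and Rrm2 then had adjusted p of 0.363, 0.142 and 0.0747. Without control replicates 1 and 3, Rrm1 and Rrm2 did not pass either (adjusted p 0.100 and 0.137). The 37.3% of simulated 1.5-fold changes recovered holds for genes drawn from all those tested, and no such share was computed for the members. Their intervals were narrower, with a median half-width of 0.24 on the log2 scale against 0.36 over all genes. Small differences in the members can still be missed with 9 libraries.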
